A study of Mus musculus with 4 samples.

Results

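The fibroblast growth factor (FGF) genes described here are the ligands Fgf1 to Fgf23, the receptors Fgfr1 to Fgfr4 and Fgfrl1, the feedback inhibitors of the Spry and Spred families with Dusp6, and the ETS factors Etv4 and Etv5. They were chosen by gene name from a table of RNA-sequencing counts, in which 36 of 43346 genes matched: 22 ligands, 5 receptors, 7 feedback inhibitors and 2 ETS factors. The libraries were made from polyadenylated RNA of mouse lung. Libraries B and E (transgenic replicates 1 and 2) are each labelled as a mouse that over-expresses IL-33, an epithelial alarm cytokine of the IL-1 family, and libraries D and F (control replicates 1 and 2) as a control mouse, with lung epithelial cells as the cell type of all 4. The treatment label reads IL-33 transgenic for the controls too, and the groups here follow the titles and genotypes. The sources used here do not give the promoter of the transgene, how the cells were isolated, the strain, the age or the sex. Nothing says whether the replicates were prepared apart, so the p-values measure only the spread between these libraries, which may be technical. The comparison asks whether IL-33 over-expression goes with other levels of these genes.

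FGFs are secreted proteins that bind receptor tyrosine kinases together with heparan sulfate, and the receptors signal through RAS to the kinase ERK. ERK turns on Etv4, Etv5, Dusp6 and Spry genes, and the SPRY, SPRED and DUSP6 proteins then damp the same pathway. In the lung, mesenchymal FGF10 and FGF7 act on FGFR2 of the epithelium in branching, in alveolar repair and in the upkeep of alveolar type 2 cells, the cells that make surfactant.

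The libraries held from 76120696 to 87723745 gene counts. Il33, which the transgene should raise, stood at 1723 counts per 1000000 (CPM, on library sizes scaled by TMM) in B and 874 CPM in E, against 117 in D and 108 in F. Il33 had a log2 ratio (log2 fold change of transgenic over control) of 3.53, with an adjusted p of 1 in edgeR and 6.62e-26 in DESeq2. The 10 alveolar type 2 markers summed to 59959 CPM in B and 39522 in E, against 49612 in D and 36005 in F. Markers of other cells were present as well. The 10 endothelial markers summed to 5374 CPM in B and 8588 in E, against 6932 in D and 9428 in F. The 12 fibroblast markers summed to 1747 CPM in B and 3448 in E, against 2609 in D and 3807 in F. No marker in these lists was at 0 in all libraries. Of the 10 endothelial markers 10, and of the 12 fibroblast markers 11, were lowest in library B. The 12 leukocyte markers summed to 46.5 CPM in B and 73.5 in E, against 23.7 in D and 42.0 in F. All 12 had log2 fold changes above 0, with 0 called by edgeR at an adjusted p under 0.05. In 7 of them both transgenic libraries exceeded both controls, where 11.9% of all tested genes did the same. Y-linked transcripts, relative to library D, stood at 0.554% in B and 9.0% in E, against 47.5% in F, so the groups differ in their Y-linked RNA as well. In bulk RNA, fewer cells of a type and less RNA per cell cannot be told apart.

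The promoters that hold a motif of this pathway are shown first, since the transcripts they drive are followed below. RefSeq (GRCm38.p6) gave the sequence around a transcript start for 27 of the 36 genes. A window from 250 bases before to 30 after each start was searched on both strands for the site of capicua, the repressor that ERK inactivates (TGAATGAA, TGAATGGA, TCAATGAA or TCAATGGA), and for an ETS site (CCGGAAGT). No matches of these motifs overlapped in the promoters printed, and the motifs were picked with the sequences in view. Capitals mark the matches.
The Dusp6 promoter (chr10:99262981-99263260, plus strand) holds TCAATGGA in reverse orientation at both -24 and 2 from the start, printed as TCCATTGA.
Dusp6: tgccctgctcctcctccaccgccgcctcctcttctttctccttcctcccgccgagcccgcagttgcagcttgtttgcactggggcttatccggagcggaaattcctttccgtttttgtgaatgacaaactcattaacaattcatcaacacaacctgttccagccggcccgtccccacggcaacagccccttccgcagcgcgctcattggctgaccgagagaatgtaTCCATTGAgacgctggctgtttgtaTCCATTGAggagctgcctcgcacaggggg
The Spry2 promoter (chr14:105896790-105897069, minus strand) holds TCAATGAA in reverse orientation at -54.
Spry2: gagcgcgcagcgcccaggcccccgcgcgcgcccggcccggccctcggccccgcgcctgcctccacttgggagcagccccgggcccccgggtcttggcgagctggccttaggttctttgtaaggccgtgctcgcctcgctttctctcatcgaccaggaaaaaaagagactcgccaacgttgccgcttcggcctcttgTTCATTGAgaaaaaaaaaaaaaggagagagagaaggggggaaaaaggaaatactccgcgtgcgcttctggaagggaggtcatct
The Spred3 promoter (chr7:29168618-29168897, minus strand) holds TGAATGAA at -10.
Spred3: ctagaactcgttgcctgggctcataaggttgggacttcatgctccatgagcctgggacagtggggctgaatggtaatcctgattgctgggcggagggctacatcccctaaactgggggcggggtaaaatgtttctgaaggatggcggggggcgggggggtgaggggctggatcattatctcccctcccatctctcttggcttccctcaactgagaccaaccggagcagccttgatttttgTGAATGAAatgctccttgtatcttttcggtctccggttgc
The Fgfrl1 promoter (chr5:108693979-108694258, plus strand) holds the ETS site at -48.
Fgfrl1: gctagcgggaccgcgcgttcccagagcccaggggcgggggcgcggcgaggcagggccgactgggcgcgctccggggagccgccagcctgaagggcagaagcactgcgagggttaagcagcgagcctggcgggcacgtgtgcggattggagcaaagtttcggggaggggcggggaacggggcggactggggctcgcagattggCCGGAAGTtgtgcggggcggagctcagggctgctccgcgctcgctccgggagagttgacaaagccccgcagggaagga
A capicua motif was in 5 of 35 start windows of the FGF genes (14.3%), against 3.65% of all 32851 windows. The genes Fgf21 and Fgf23, whose counts were near 0, supplied the other matches. An ETS motif was in 1 of 35 (2.86%), against 3.72% of all windows. A match is a string of letters and not a shown binding site.

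Of the 36 genes, 26 passed the filter on low counts and were tested, among them 12 of the 22 ligands and all receptors, feedback inhibitors and ETS factors. None was called different: edgeR's quasi-likelihood test, adjusted over 20872 genes, called 0 of the 26, where it called 0% of all genes. That test did not call Il33 either, at a log2 ratio of 3.53, so its 0 calls cannot show that the FGF genes were unchanged. DESeq2 and limma-voom also called 0 of the 26. At an unadjusted p under 0.05 edgeR had 0 of the 26, against 0.896% of all genes higher and 0.393% lower. All 26 had an adjusted p of 1 in edgeR. The count of 0 at an unadjusted p under 0.05 in edgeR did not hold in every fit with 1 library left out. Without E, B is the only transgenic library, and p-values of such a fit rest on 1 library in a group. The median log2 fold change of the FGF genes was then -0.14, against -0.0064 over all tested genes. Of the 26, 13 had a log2 fold change above 0 and 13 below 0, with a median of 0.0011 against a median of -0.0013 over all tested genes. In 3 of the 26 both transgenic libraries exceeded both controls (11.5%, against 11.9% of all tested genes), and in 5 both were below both controls (19.2%, against 12% of all tested genes). The first were Spred1, Fgf13 and Fgf14, and the second Dusp6, Spry4, Fgfr4, Etv4 and Fgf16. Fgf13 and Fgf16 lie on chromosome X, and the groups differ in Y-linked RNA as well. With the Y-linked share as covariate the log2 fold change was 0.13 for Fgf13 and -1.57 for Fgf16. The counts of 3 and 5 genes without overlap moved with each library left out. Without B they were 4 higher and 6 lower of 27 genes, where 28.5% and 28% of all genes tested did the same. Without E they were 11 and 12 of 27, against 35.7% and 38.6% of all genes. Without D they were 9 and 14 of 27, against 30.7% and 31.8%, and without F 8 and 6 of 27, against 27.3% and 27.1%.

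**Figure D1:**
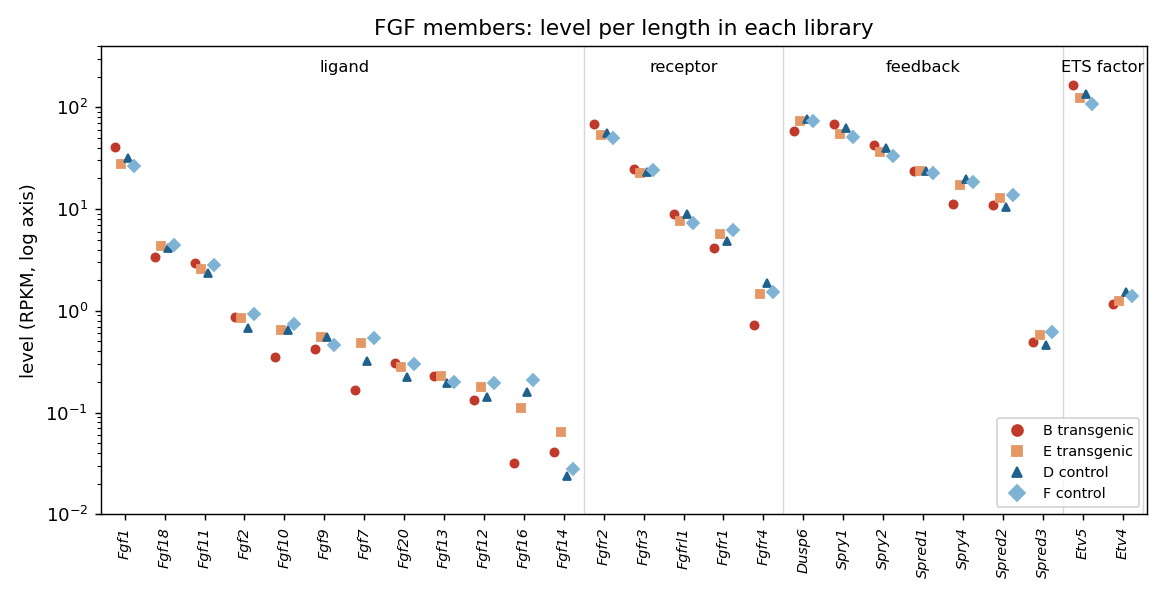
Level of each tested FGF gene in reads per kilobase per 1000000 reads (RPKM, log axis), with 4 points per gene, 1 for each library (B and E transgenic, D and F control), grouped by role. Etv5 tops the plot at 108 to 167 RPKM, and the points of most genes lie close together beside the spread between genes.

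Among the receptors, Fgfr2 was the most abundant per length. Fgfr2 (ENSMUSG00000030849, chromosome 7) averaged 57.0 RPKM over the 4 libraries, Fgfr3 23.7, the kinase-lacking receptor gene Fgfrl1 8.21, Fgfr1 5.24 and Fgfr4 1.39 RPKM. This order held in every library, with no overlap between neighbours. The counts are per gene and do not separate the epithelial and mesenchymal splice forms of the receptors. The table gives Fgfr2 a span of 130162451 to 133123350 (GRCm38), in which 314 exonic bases are shared with Ctbp2 on the same strand, so a few of its reads may be shared.

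The receptor for FGF7 and FGF10 on epithelium, Fgfr2, stood at 498 CPM in B and 387 in E, against 403 in D and 362 in F. The transgenic libraries averaged 443 ± 78.8 CPM and the controls 382 ± 28.8 CPM (SD, n = 2 each; log2 ratio 0.21, SE 0.17). Library B was the highest, and E lay between the controls. Fgfr1, the main receptor of mesenchymal cells, ran the other way across libraries, at 33.6 CPM in B and 46.1 in E, against 39.6 in D and 51.0 in F (log2 ratio -0.18, SE 0.21). Its order, lowest in B and then D, E and F, was also that of the summed fibroblast and endothelial markers, whose part in it was not tested. How many of all tested genes share a library order with a marker list was not counted, here or below. As a ratio of RPKM values, Fgfr2 over Fgfr1 was 16.6 in B and 9.41 in E, against 11.4 in D and 7.96 in F.

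Fgfr3 varied least among the receptors, at 172 CPM in B and 156 in E, against 160 in D and 166 in F (log2 ratio 0.0099, SE 0.11). Fgfrl1, whose promoter carries the ETS motif above, stood at 23.9 CPM in B and 20.2 in E, against 23.9 in D and 19.2 in F (log2 ratio 0.034, SE 0.16). For both genes the groups overlapped. Fgfr4 was the scarcest receptor and lay lower in both transgenic libraries, at 2.54 CPM in B and 5.18 in E, against 6.59 in D and 5.39 in F. The transgenic libraries averaged 3.86 ± 1.87 CPM and the controls 5.99 ± 0.849 CPM (SD, n = 2 each; log2 ratio -0.63, SE 0.37). Most of that difference was in library B: without it the log2 ratio was -0.21, and without E it was -1.25.

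Among the ligands, Fgf1 stood apart. It averaged 31.7 RPKM, followed by Fgf18 at 4.06, Fgf11 at 2.68, Fgf2 at 0.831, Fgf10 at 0.597, Fgf9 at 0.498 and Fgf7 at 0.378 RPKM. Fgf1 did not overlap Fgf18 in any library, nor Fgf18 Fgf11, nor Fgf11 Fgf2, while from Fgf2 down the ranges of neighbours overlapped. FGF1 can bind all FGF receptors, and its gene (ENSMUSG00000036585) stood at 191 CPM in B and 128 in E, against 147 in D and 124 in F (log2 ratio 0.24, SE 0.22). Library B was the highest, and E lay between the controls, the same arrangement as for Fgfr2. Their order over the libraries, B, D, E and F from high to low, was that of the summed alveolar type 2 markers, whose part in it was not tested. Without B the log2 ratio of Fgf1 was -0.077.

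The mesenchymal ligands for FGFR2 were scarce in these libraries and lowest in B. Fgf10, needed for lung budding, stood at 1.60 CPM in B and 2.99 in E, against 2.97 in D and 3.43 in F (log2 ratio -0.47, SE 0.35). Fgf7, the keratinocyte growth factor, stood at 0.543 CPM in B and 1.57 in E, against 1.05 in D and 1.75 in F (log2 ratio -0.40, SE 0.57). Library B held 0.372 times the mean of the other 3 libraries for Fgf7 and 0.512 times for Fgf10, while E lay within or next to the controls. Without B the log2 fold change of Fgf7 was 0.16 and that of Fgf10 was -0.095. Fgf7 and Fgf10 had the order B, D, E and F from low to high, with D and E nearly level for Fgf10. That was also the order of the summed fibroblast, endothelial and smooth muscle markers, and the part of those cells in it was not tested. Per length, Fgfr2 exceeded Fgf7 by 412 times in B and 111 times in E, against 171 times in D and 92.8 times in F.

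**Figure D2:**
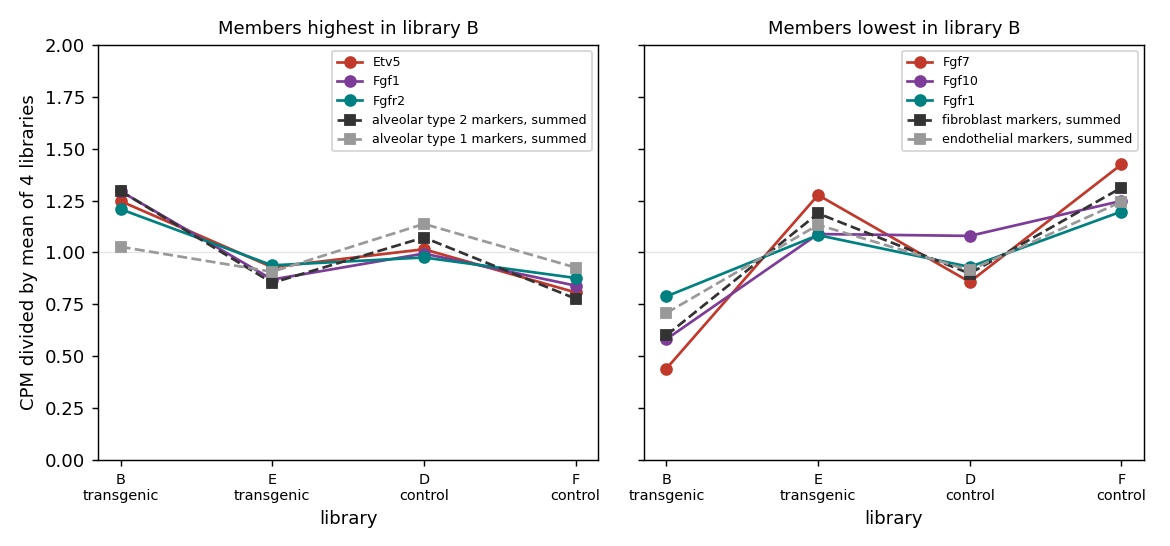
CPM in each library divided by the mean of the 4 libraries, for 3 genes highest in library B (left) and 3 lowest in it (right), with solid lines, and for the summed CPM of cell type marker lists, with dashed lines. The transgenic libraries B and E are on the left of each panel and the controls D and F on the right. Etv5, Fgf1 and Fgfr2 share the library order of the alveolar type 2 markers, a list that includes Etv5. The alveolar type 1 markers, also in the left panel, run D, B, F and E from high to low. Fgf7, Fgf10 and Fgfr1 share the library order of the fibroblast and endothelial markers.

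The remaining ligands above 1 CPM showed no gap between the groups. Fgf18, active in alveolar development, stood at 3.98 CPM in B and 5.11 in E, against 4.93 in D and 5.26 in F (log2 ratio -0.16, SE 0.20). Fgf9, made by mesothelium and epithelium in the embryo, stood at 1.79 CPM in B and 2.38 in E, against 2.36 in D and 1.97 in F (log2 ratio -0.053, SE 0.26). The 6 mesothelial markers summed to 136 CPM in B and 70.1 in E, against 189 in D and 57.0 in F. Fgf2 stood at 1.55 CPM in B and 1.53 in E, against 1.22 in D and 1.69 in F (log2 ratio 0.084, SE 0.27). In the GENCODE annotation, 640 bases of Fgf2 exons lie opposite exons of Nudt6, and 255 are shared with Gm43439 on the same strand. The Fgf2 that was counted has another span (37312519 to 37405377) and a length of 1801 bases, so how much of this overlap was counted is not known. Where it was counted, reads of these genes cannot be told apart, since the strand setting is not given.

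Fgf11, Fgf12, Fgf13 and Fgf14 encode FGF homologous factors, which stay in the cell, bind sodium channels and are not secreted. Fgf11 was the most abundant of them, at 9.04 CPM in B and 7.89 in E, against 7.08 in D and 8.60 in F (log2 ratio 0.11, SE 0.18). Fgf13 was even within the groups, at 0.913 CPM in B and 0.914 in E, against 0.782 in D and 0.810 in F (log2 ratio 0.20, SE 0.26). Fgf14, with 13 and 24 reads in B and E against 8 and 10 in D and F, had the smallest p of the 26 genes in edgeR (unadjusted p = 0.0904, adjusted p = 1; log2 ratio 1.03, SE 0.49). Fgf16 was the lowest relative to controls, with 4 and 16 reads in B and E against 21 and 29 in D and F (log2 ratio -1.33, SE 0.64). These differences rest on few reads. Fgf12 and Fgf20 ranged from 0.372 to 0.599 CPM.

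The 10 ligands under the filter were barely detected. Fgf6 and Fgf15 had 0 reads in all libraries, which allows up to 0.0397 CPM in B and 0.0339 in E, against 0.0372 in D and 0.0352 in F (3 counts per library, counting error only). Fgf3 had 2 reads in F and 0 elsewhere, and Fgf4 had 8 in B and 0 elsewhere. Fgf8, Fgf17, Fgf22 and Fgf23 had 0 to 6 reads per library. Fgf5 had 4 and 5 reads in B and E, against 15 and 10 in D and F. The hormone gene Fgf21, made mainly by liver, had 10 and 0 reads in B and E, against 0 and 4 in D and F. The other circulating FGFs, Fgf15 of the gut and Fgf23 of bone, were thus at or near 0 as well.

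The feedback inhibitors were among the most abundant FGF genes and differed in direction. Per length, Dusp6 averaged 69.9 RPKM, Spry1 59.1, Spry2 38.0, Spred1 23.4, Spry4 16.7, Spred2 12.0 and Spred3 0.539 RPKM. The ranges of Dusp6 and Spry1 overlapped over the libraries, as did those of Spry4 and Spred2, and the other neighbours in this order were apart. Spry1 and Spry2, which encode inhibitors of receptor tyrosine kinase signalling, were highest in library B, while Dusp6 and Spry4 were lowest there.

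Dusp6 (chromosome 10, 99263231 to 99267488), the ERK phosphatase whose promoter carries the TCAATGGA motif at both sites above, stood at 162 CPM in B and 203 in E, against 213 in D and 204 in F. The transgenic libraries averaged 182 ± 29.2 CPM and the controls 209 ± 6.39 CPM (SD, n = 2 each; log2 ratio -0.20, SE 0.15). Library E lay just under F, so the absence of overlap rested on a gap of less than the spread within either group. Spry4 stood at 51.0 CPM in B and 79.2 in E, against 91.0 in D and 85.4 in F, with means of 65.1 ± 19.9 CPM with the transgene and 88.2 ± 3.94 CPM in controls (SD, n = 2 each; log2 ratio -0.44, SE 0.22). Its unadjusted p in edgeR was 0.104 (adjusted p = 1), and without library B the log2 ratio was -0.16. Both genes were thus lower mainly in B.

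Spry1 stood at 197 CPM in B and 158 in E, against 183 in D and 149 in F (log2 ratio 0.092, SE 0.17). Spry2 stood at 88.9 CPM in B and 75.5 in E, against 82.3 in D and 69.9 in F (log2 ratio 0.11, SE 0.14). In both genes B and D were the highest libraries, so each group held a high and a low library. Their order, B, D, E and F from high to low, was also that of Fgf1, Fgfr2, Etv5 and the summed alveolar type 2 markers, whose part in it was not tested. As a ratio of RPKM values, Spry4 over Spry1 was 0.164 in B and 0.318 in E, against 0.314 in D and 0.362 in F, which sets B apart from the other 3 libraries. In the Spry1 exons, 710 bases lie opposite Gm42922, where strands cannot be told apart. Fgfr3 (998 bases), Fgf14 (220), Spred3 (202) and Fgf20 (202) likewise have GENCODE exons opposite another gene, as do Fgfr1 (164) and Fgf10 (123). How much of these overlaps was counted is not known.

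The SPRED proteins bind neurofibromin and hold RAS in check. Spred1 was the steadiest of the 26 genes, at 162 CPM in B and 161 in E, against 159 in D and 152 in F (log2 ratio 0.056, SE 0.10). Spred2 stood at 50.2 CPM in B and 59.7 in E, against 48.1 in D and 63.0 in F (log2 ratio -0.015, SE 0.17). Spred3 stood at 2.96 CPM in B and 3.49 in E, against 2.74 in D and 3.74 in F (log2 ratio -0.0076, SE 0.24). For Spred2 and Spred3 the arrangement was the reverse of Spry1 and Spry2, with E and F high and B and D low, and again without a gap between the groups.

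The ETS factors Etv4 and Etv5, close relatives that ERK signalling induces, differed widely in level. Etv5, which alveolar type 2 cells need to keep their identity, was the most abundant FGF gene here at 134 RPKM, against 1.33 RPKM for Etv4. Etv5 (ENSMUSG00000013089, chromosome 16, 22381309 to 22439719) stood at 683 CPM in B and 509 in E, against 556 in D and 443 in F. The transgenic libraries averaged 596 ± 123 CPM and the controls 500 ± 80.4 CPM (SD, n = 2 each; log2 ratio 0.25, SE 0.21), and the groups overlapped. The order B, D, E and F was that of the summed alveolar type 2 markers, a list that includes Etv5, and their part in it was not tested. Etv4 stood at 3.64 CPM in B and 3.86 in E, against 4.76 in D and 4.30 in F (log2 ratio -0.27, SE 0.18). Here both transgenic libraries lay below both controls.

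**Figure D3:**
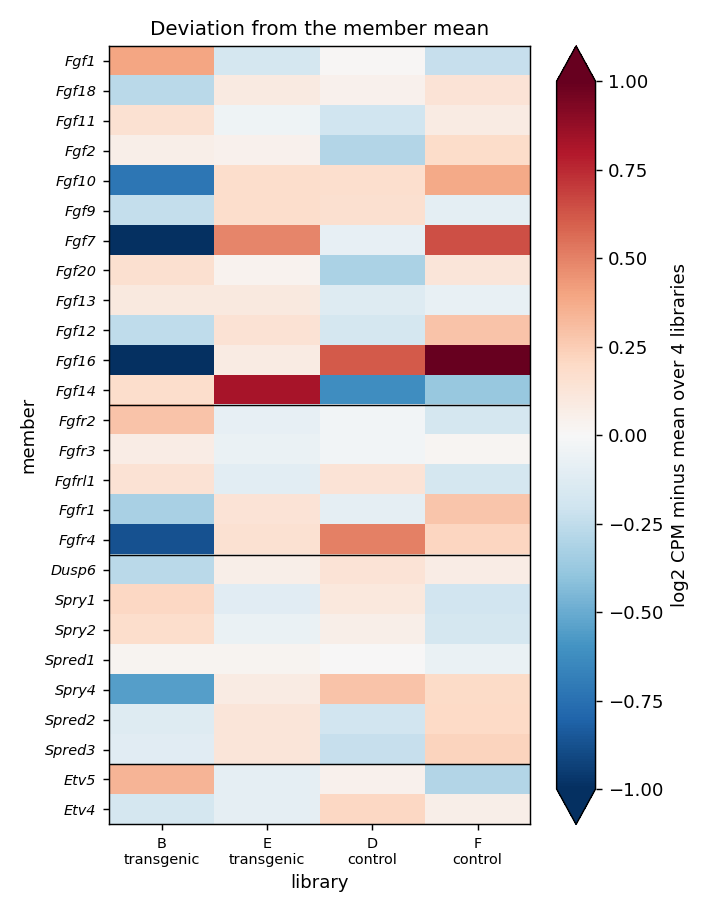
Heat map of log2 CPM minus the mean over the 4 libraries, with a row for each tested FGF gene grouped by role and a column for each library (B and E transgenic, D and F control; red above, blue below the mean, colour capped at 1). Library B stands out, with Fgf7, Fgf10, Fgf16, Fgfr4 and Spry4 low and Fgf1, Etv5 and Fgfr2 high.

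Across the 26 genes, library B was an extreme in most: it was the lowest of the 4 libraries for 11 genes and the highest for 10. Library E was the lowest for 1 and the highest for 3, while D was the lowest for 7 and the highest for 4 and F the lowest for 7 and the highest for 9. The genes lowest in B were Dusp6, Etv4, Spry4, Fgfr1, Fgfr4 and the ligands Fgf7, Fgf9, Fgf10, Fgf12, Fgf16 and Fgf18. Those highest in B were Etv5, Fgf1, Fgf11, Fgf20, Fgfr2, Fgfr3, Fgfrl1, Spred1, Spry1 and Spry2. The split between the transgenic libraries B and E was thus as large as or larger than that between the groups for Fgf7, Fgf10, Fgfr2 and Etv5. Extremes and library orders were not counted over all tested genes. Neither the extremes in B nor the shared orders can thus be read as a trait of the FGF genes or of a cell type. B was also lowest for 10 of 10 endothelial and 8 of 8 smooth muscle markers, and highest for 9 of 10 alveolar type 2 markers. For the 6 mesothelial markers it was lowest in 0 and highest in 0.

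**Figure D4:**
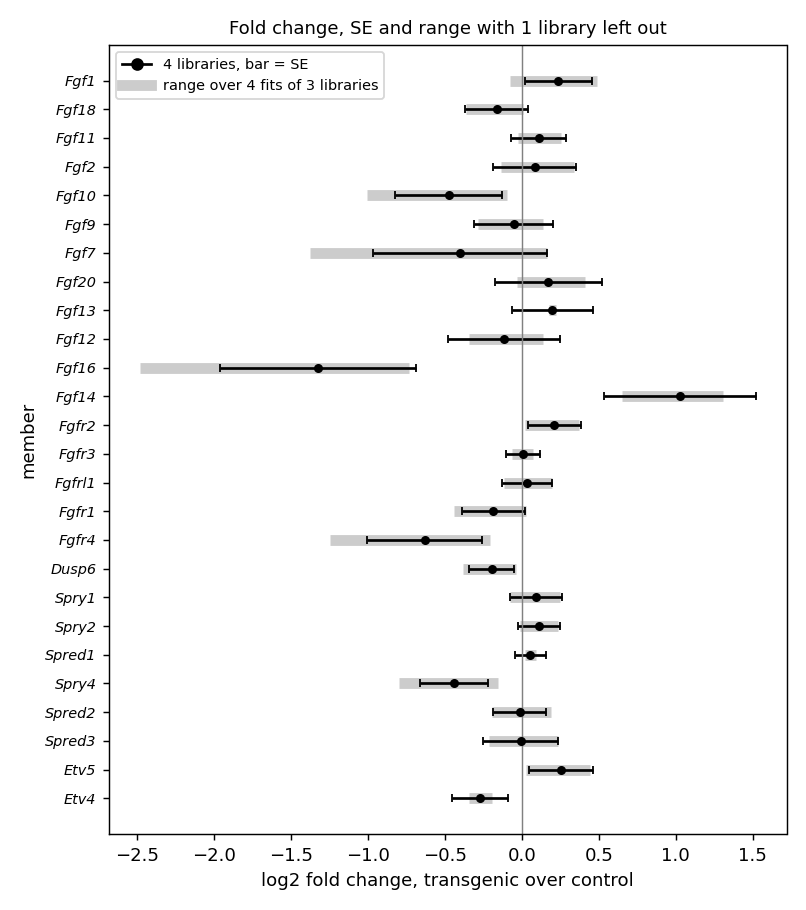
Log2 fold change of transgenic over control for the 26 tested FGF genes (points), with the SE of the edgeR fit (black bars) and the range over the 4 fits that each leave out 1 library (grey bars). The grey bars of 15 genes cross 0. Those of Dusp6, Spry4, Fgfr4, Etv4, Fgf10 and Fgf16 stay below it, and those of Etv5, Fgf13, Fgf14, Fgfr2 and Spred1 stay above it.

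The genes around the members were read from 4 lists of the pathway: 0 genes were called in any, and 0 had an unadjusted p under 0.05 in edgeR (over all genes DESeq2 called Il33 alone and limma-voom called 0). Of 9 tested coreceptors and carriers, 3 had log2 fold changes above 0 (median -0.14), with 1 higher and 3 lower without overlap. Cdh2, encoding N-cadherin, averaged 12.3 ± 2.82 CPM with the transgene and 15.4 ± 0.993 CPM in controls, and the carrier gene Fgfbp3 2.38 ± 0.0186 CPM with it and 2.94 ± 0.593 CPM in controls (SD, n = 2 each). Of 19 heparan sulfate proteoglycans and modifying enzymes, 8 were above 0 (median -0.041), 0 were higher and 1 lower without overlap. The proteoglycan gene Gpc1 averaged 15.1 ± 0.551 CPM with the transgene and 18.1 ± 3.94 CPM in controls, and the sulfotransferase gene Hs6st2 31.3 ± 9.27 CPM with it and 24.5 ± 8.21 CPM in controls (SD, n = 2 each).

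Between receptor and ERK, 9 of 20 genes were above 0 (median -0.016), with 3 higher and 1 lower without overlap. The scaffold gene Ksr1 had a log2 fold change of -0.28 (SE 0.19) and the RAS exchange factor gene Sos1 one of 0.12 (SE 0.10). Of 16 other feedback and target genes of ERK, 6 were above 0 (median -0.067), with 0 higher and 3 lower without overlap, namely Ier3, Ccnd1 and Egr1. The early response gene Ier3 averaged 149 ± 2.49 CPM with the transgene and 179 ± 27.9 CPM in controls, and the cyclin gene Ccnd1 319 ± 25.7 CPM with it and 361 ± 11.9 CPM in controls (SD, n = 2 each). These shares stand beside 11.9% higher and 12% lower among all tested genes.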

How the data were processed

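Lung RNA of 2 IL-33 transgenic and 2 control libraries was prepared with Qiagen RNeasy and selected for polyA, which the labels' protocols record. The submitters' processing notes name TopHat2 (version 2), Bowtie (version 1), featureCounts (version 1) and the build mm10 (GRCm38), and the sources used here do not give the annotation release, the strand setting or how multiply mapped reads were counted. The authors deposited 1 table with a whole-number read count per gene and library, not normalized, and an RPKM value. The deposited RPKM values served only to work out their totals, of which the gene counts made up 80.3% to 82.7%. The RPKM printed in the report were computed from the counts, the TMM-scaled library sizes and the table's gene length.

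The filterByExpr rule (count of at least 10, total of at least 15) kept 20872 of 43346 genes, which were tested with edgeR 4.0.16 (R 4.3.3, quasi-likelihood test with its legacy setting, no covariate, Benjamini-Hochberg at 0.05). The SE was taken as the absolute log2 ratio over the root of the F statistic. Alternatives used DESeq2 1.42.0 and limma 3.58.1. Every pair of libraries differed by more than sampling noise by a chi-square per gene. It was smallest between E and F (18.1) and next smallest between B and D (57.8), both pairs of different groups. The other pairs of different groups had 70.2 (E and D) and 160 (B and F). It was 128 between the transgenic libraries B and E and 75.7 between the controls D and F. Values are given for every tested receptor, feedback inhibitor and ETS factor, for tested ligands averaging at least 1 CPM, and for the 2 genes of each pathway list with the smallest p; Fgf14, Fgf16, Fgf13 and Egr1 and the ratios were picked after their values were seen. The members, lists and alternatives were chosen with earlier results of these data known.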

Additional observations from a re-analysis of the deposited data

How the results depend on the processing

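No FGF gene was called under any of the 13 alternatives, and 11 of the 26 tested genes kept their direction under all of them: Dusp6, Etv4, Etv5, Fgf10, Fgf13, Fgf14, Fgf16, Fgfr2, Fgfr4, Spred1 and Spry4. The count of FGF genes higher without overlap was 0 of 21 under the stricter filter (at least 1 CPM in 2 libraries and a total of 20; 10.2% of all genes), and that of genes lower was 8 of 34 with no filter (12.9% of all genes). With each library left out these counts ran from 4 to 11 of 27, against 27.3% to 35.7% of all genes, and from 6 to 14 of 27, against 27.1% to 38.6%. DESeq2 called 1 gene of all genes, Il33, where edgeR called 0, and with each library left out edgeR called from 0 to 15 genes, none of them an FGF gene. The median log2 fold change of the FGF genes was -0.071 once the Y-linked share entered as covariate, and -0.14 to 0.0093 with each library left out. With that covariate the log2 fold changes of Fgf11 (-0.28), Fgf2 (-0.51), Fgf9 (0.36), Fgf20 (-0.40) and Fgfr3 (-0.079) turned, and limma-voom turned that of Spred3 (0.0064); the cause was not tested. Leaving out each library turned 15 genes, with log2 fold changes of Fgf1 -0.077 to 0.49, Fgf11 -0.024 to 0.26, Fgf12 -0.34 to 0.13, Fgf18 -0.36 to 0.0064, Fgf2 -0.13 to 0.34, Fgf20 -0.028 to 0.41, Fgf7 -1.38 to 0.16, Fgf9 -0.29 to 0.14, Fgfr1 -0.44 to 0.029, Fgfr3 -0.063 to 0.071, Fgfrl1 -0.11 to 0.20, Spred2 -0.20 to 0.19, Spred3 -0.21 to 0.23, Spry1 -0.078 to 0.25, Spry2 -0.012 to 0.23. Because the Y-linked share itself separates the groups, a fit with it cannot tell it apart from the transgene. The counts without overlap do not depend on the choice of test, dispersion or covariate. No paired analysis was possible because the labels carry no replicate numbers, only letters, and the numbers 1 and 2 used here follow the order of deposit and pair no libraries. With 2 libraries per group the spread between libraries limits what can be detected, and Fgf14 and Fgf16 had 4 to 29 reads per library.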
